A study of Mus musculus with 12 samples.

Results

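The genes described here are those of cholesterol synthesis, its control by the sterol regulatory element-binding proteins (SREBPs), and the uptake and movement of cholesterol inside the cell. The set was defined by gene symbol as 31 genes, of which 29 had a usable row among the 19945 genes tested, each represented by its brightest probe set. Acat2 and Soat1 had no row used here. Expression was measured with single-colour Affymetrix gene arrays in 12 cultures of primary mouse macrophages, grown from C57BL/6 bone marrow in L929-conditioned medium and used on day 7. The 4 groups of 3 arrays each were Hdac3 -/- macrophages (HDAC3 -/- in the labels) given lipopolysaccharide (LPS, a bacterial cell wall component) at 100 ng/ml for 4 h, untreated Hdac3 -/- macrophages, Hdac3 +/- macrophages given the same LPS treatment, and untreated Hdac3 +/- macrophages. The submitters label Hdac3 +/- cells, which serve as controls, wild type. The sign +/- in the titles instead stands for 1 functional allele. The sources used here do not give how, or in which cells, Hdac3 was deleted. No label ties the arrays of a group to different animals, and a p-value therefore covers only the scatter among the arrays.

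Cholesterol is built from acetyl-CoA by way of mevalonate, farnesyl diphosphate, squalene and lanosterol. When sterols are scarce, the membrane protein Scap carries the precursors of the SREBP transcription factors, products of Srebf1 and Srebf2, from the endoplasmic reticulum to the Golgi, where proteases release their active parts, and the Insig proteins hold the complex back when sterols are plentiful. Macrophages also take up cholesterol in lipoproteins and cell debris, free it from its esters in the lysosome with the acid lipase Lipa, and pass it on through Npc2 and Npc1. Hdac3 is a histone deacetylase that acts in the NCoR and SMRT corepressor complexes.

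Median signals of the 12 arrays were alike, from 5.19 to 5.37 on the log2 scale. Hdac3 itself read 6.91, 7.25 and 7.18 in Hdac3 -/- LPS arrays, against 8.90, 9.02 and 8.66 in Hdac3 +/- LPS arrays, a log2 difference of -1.75 ± 0.153 (SE, adjusted p = 5.9e-06). In untreated cells it read 7.39, 7.52 and 7.39 in Hdac3 -/- arrays, against 9.42, 9.10 and 8.98 in Hdac3 +/- arrays (-1.74 ± 0.153, adjusted p = 1.66e-05). These values come from 1 probe set, and a probe outside the deleted part checks nothing. All 10 macrophage markers examined, Cd68, Csf1r and Adgre1 among them, were bright, with mean signals per gene of 7.89 to 13.4. Markers of T cells, B cells, neutrophils, dendritic cells, fibroblasts, erythroid cells and mast cells had means per gene of 2.51 to 7.15. The highest was S100a8, from the neutrophil markers. Its group means were 9.23 in Hdac3 -/- LPS, 7.07 in Hdac3 -/- untreated, 7.27 in Hdac3 +/- LPS and 5.03 in Hdac3 +/- untreated arrays. S100a8 stood apart from its list. By sign, 6 of the 7 neutrophil markers were lower in Hdac3 -/- than in Hdac3 +/- cells, both untreated and after LPS. In bulk cultures, fewer cells of a type and less RNA per cell cannot be told apart. The X inactivation transcript Xist read 3.20 and 3.93 in the replicate 1 arrays of Hdac3 +/- LPS and Hdac3 +/- untreated cells, where the Y-linked genes Kdm5d, Eif2s3y and Uty were bright, and 9.67 to 10.97 in the other 10 arrays, where those genes were dim. Calls of members that are gained or lost without those 2 arrays are given with their values.

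The synthesis enzymes varied together between arrays of the same group. Of 18 enzymes measured, 2 lay above their group mean in Hdac3 -/- untreated replicate 2, against 18 and 15 in replicates 1 and 3 of that group. The opposite held for Hdac3 +/- untreated replicate 2, where 17 of 18 lay above the group mean, against 3 in each of the other two arrays. After LPS, replicate 2 of Hdac3 -/- was low as well, with 3 of 18 above the group mean, against 13 and 14 in replicates 1 and 3. In Hdac3 +/- LPS arrays the counts were 5, 12 and 6. The mean log2 signal of the 18 enzymes was 7.96, 7.79 and 7.95 in Hdac3 -/- LPS arrays and 8.70, 8.19 and 8.68 in Hdac3 -/- untreated arrays. It was 7.65, 7.78 and 7.63 in Hdac3 +/- LPS arrays and 8.20, 8.80 and 8.18 in Hdac3 +/- untreated arrays. Hdac3 -/- untreated replicate 2 thus stood close to replicates 1 and 3 of Hdac3 +/- untreated, and Hdac3 +/- untreated replicate 2 close to replicates 1 and 3 of Hdac3 -/- untreated. The median within-group SD of the enzymes was 0.298 in Hdac3 -/- untreated and 0.442 in Hdac3 +/- untreated arrays, against 0.145 and 0.191 for all genes in the same groups. After LPS it was 0.111 in Hdac3 -/- and 0.261 in Hdac3 +/- arrays, against 0.158 and 0.207 for all genes. Fatty acid synthesis genes, which SREBPs also control, set the same untreated arrays apart. Above the group mean lay 2 of 13 in Hdac3 -/- untreated replicate 2 and 10 of 13 in Hdac3 +/- untreated replicate 2. In Hdac3 -/- LPS replicate 2 it was 1 of 13, against 13 and 11 in replicates 1 and 3. In Hdac3 +/- LPS arrays the counts were 10, 7 and 1, which is not the order of the enzymes there. The lysosomal transporter gene Npc1 did not follow the enzymes in Hdac3 -/- untreated replicate 2, where it deviated from its group mean by 0.24 while the sterol sensor gene Insig1 deviated by -0.69. What set the 2 untreated replicate 2 arrays and Hdac3 -/- LPS replicate 2 apart was not tested. The counts of members that fell with LPS are given with and without each of the 2 untreated arrays.

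**Figure D1:**
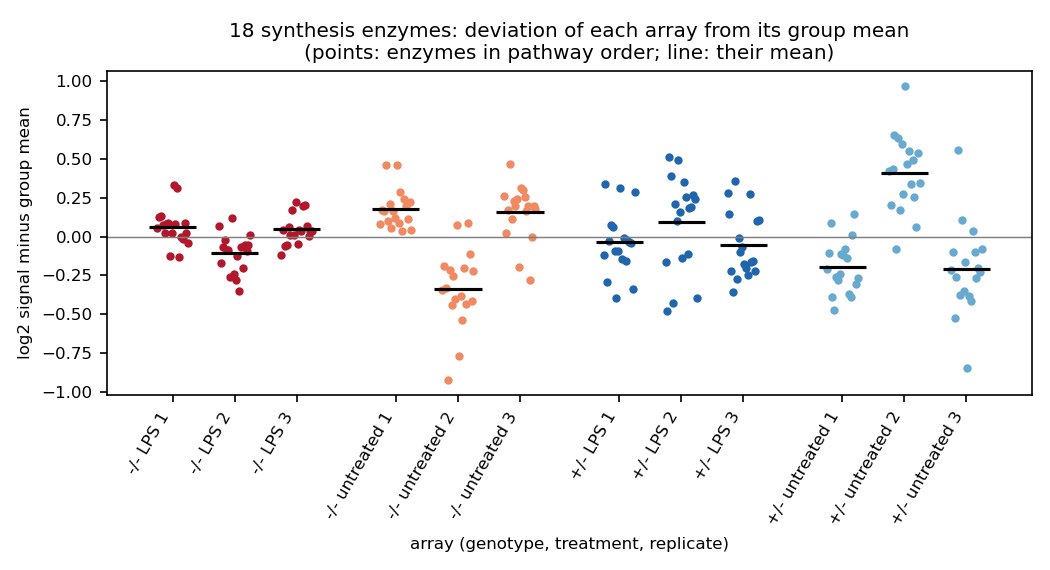
Deviation of each of 18 synthesis enzymes (points) from its group mean, on the log2 scale, in each of 12 arrays, with the mean deviation per array as a line. The mean lies at -0.335 in Hdac3 -/- untreated replicate 2 and at 0.407 in Hdac3 +/- untreated replicate 2, farther from 0 than in any other array.

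LPS lowered a large share of these genes in both genotypes, and raised none past the threshold. In Hdac3 -/- macrophages 9 of 29 members (31%) fell at an adjusted p under 0.05, against 5.18% of all genes tested, and 0 of 29 rose, against 3.69%. In Hdac3 +/- macrophages 14 of 29 (48.3%) fell, against 15.5% of all genes, and 0 rose, against 9.59%. At an unadjusted p under 0.05 in limma, 18 members were lower and 0 higher in Hdac3 -/- cells, against 12.1% and 7.99% of all genes. In Hdac3 +/- cells 18 were lower and 1 higher (Npc1l1), against 20.7% and 17.5%. The median log2 difference of the members was -0.60 in Hdac3 -/- and -0.53 in Hdac3 +/- macrophages, while the median of all genes was 0.02 and 0.08. By sign alone 25 of 29 members were lower in each genotype.

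The 9 members that fell in Hdac3 -/- cells also fell in Hdac3 +/- cells, so they were 100% of the first list and 64.3% of the second. They were the enzymes Sqle, Lss, Msmo1 and Dhcr7, the regulators Srebf1 and Insig1, and the handling genes Stard4, Npc1 and Scarb1. Hmgcs1, Mvd, Idi1, Nsdhl and Lipa passed the threshold in Hdac3 +/- macrophages and not in Hdac3 -/- macrophages, which does not show that their responses differed. The LPS arrays did not overlap with the untreated arrays, on the lower side, for 19 members in Hdac3 -/- cells and for 15 in Hdac3 +/- cells, compared with 15.7% and 18.6% of all genes. The count in Hdac3 -/- cells depended on single arrays. It was 14 without Hdac3 -/- untreated replicate 2, 3 without untreated replicate 1, 4 without untreated replicate 3, 5 without Hdac3 -/- LPS replicate 1, 4 without LPS replicate 2 and 6 without LPS replicate 3. Without Hdac3 +/- untreated replicate 2 it was 12, with Hmgcs1, Nsdhl and Sc5d added. The count in Hdac3 +/- cells was 10 without that array, where Idi1, Nsdhl, Srebf1 and Scarb1 were lost, and 14 without Hdac3 -/- untreated replicate 2. Without both arrays with Y-linked signal the counts were 9 in Hdac3 -/- and 14 in Hdac3 +/- cells, but in Hdac3 +/- cells Srebf1 was lost and Mvk passed (-0.75, adjusted p = 0.0279).

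**Figure D2:**
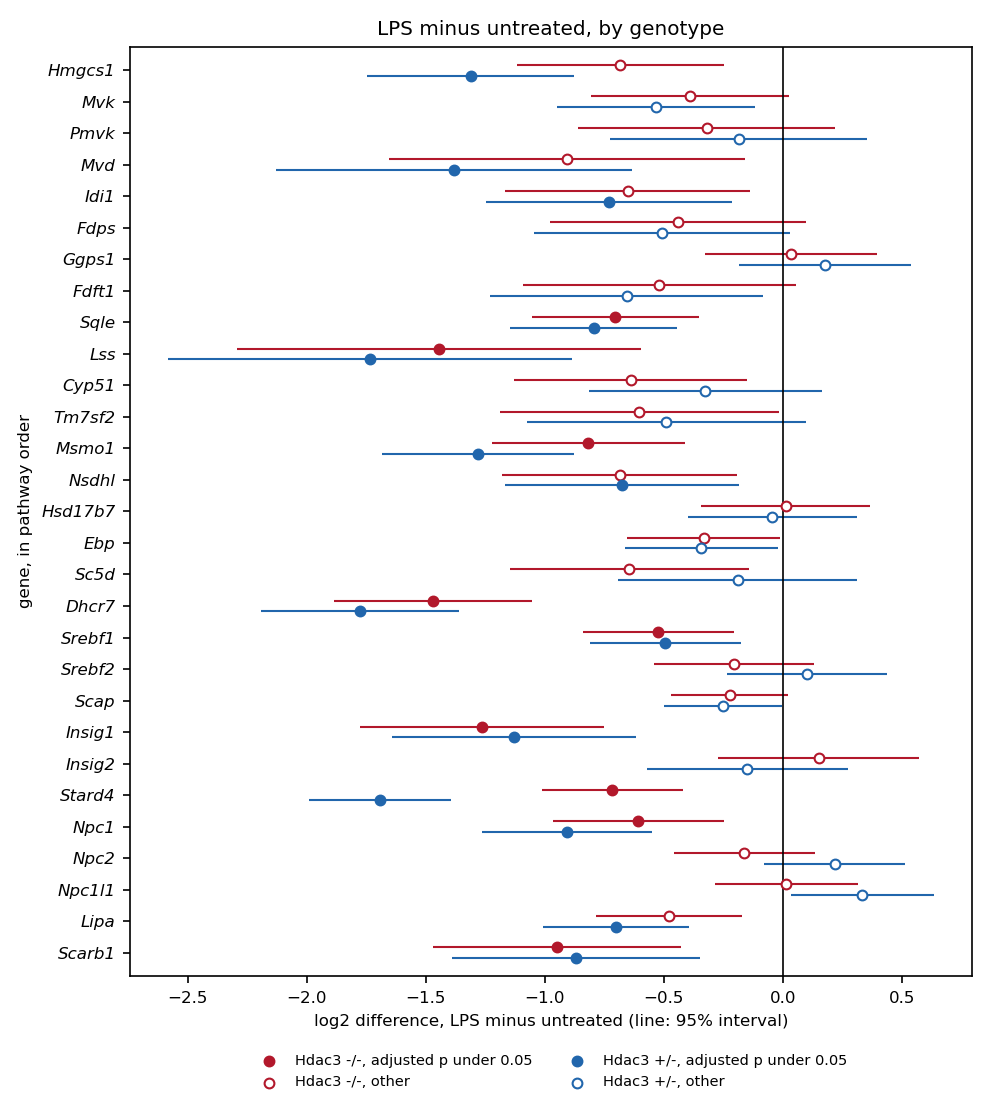
Log2 difference of LPS-treated minus untreated macrophages for the 29 measured members in pathway order, with 95% intervals as lines. Filled points mark an adjusted p under 0.05: 9 members in Hdac3 -/- and 14 in Hdac3 +/- macrophages, all left of 0.

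**Figure D3:**
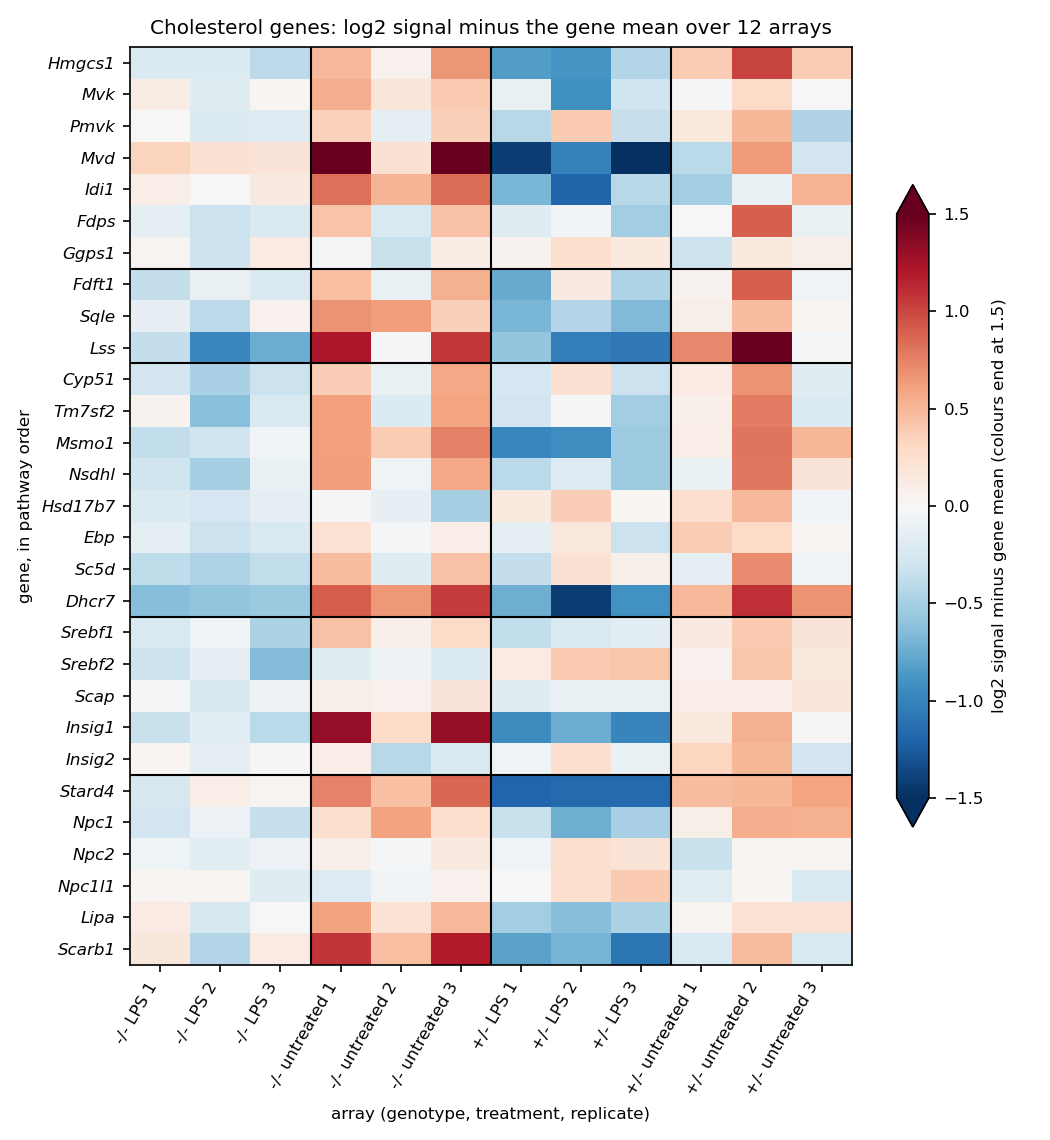
Log2 signal of each member (rows) in each array (columns) minus the mean of that gene over 12 arrays. Most enzyme rows are blue in the LPS columns, and the columns of both untreated replicate 2 arrays differ from their neighbours; colours end at 1.5.

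Promoters were examined because these members moved together. RefSeq windows of 250 bases before to 50 bases after the start (GRCm38.p6) were at hand for 23 of 29 members. Fdps, Fdft1, Sqle, Stard4, Npc1 and Scarb1 had no window used here. Each window was searched on both strands for 4 motifs: the sterol regulatory element TCACNCCAC, the E-box CACGTG, which SREBPs can also bind, the CCAAT box CCAAT, the site of the SREBP partner NF-Y, and the GC box GGGCGG, a site of Sp1. No matches of different motifs overlapped. The windows of 5 members are printed here, with matches to the sterol regulatory element, the E-box and the CCAAT box in capitals (ATTGG is CCAAT on the other strand). Hmgcs1 (chr13:119690101-119690400, plus strand) was the member with a match to the sterol regulatory element. Insig1 (chr5:28071162-28071461, plus strand) holds an E-box and a CCAAT box. Msmo1 (chr8:64733529-64733828, minus strand) and Dhcr7 (chr7:143829964-143830263, plus strand) fell in both genotypes. Ggps1 (chr13:14063439-14063738, minus strand) is an enzyme whose signal passed the threshold in no comparison.
Hmgcs1: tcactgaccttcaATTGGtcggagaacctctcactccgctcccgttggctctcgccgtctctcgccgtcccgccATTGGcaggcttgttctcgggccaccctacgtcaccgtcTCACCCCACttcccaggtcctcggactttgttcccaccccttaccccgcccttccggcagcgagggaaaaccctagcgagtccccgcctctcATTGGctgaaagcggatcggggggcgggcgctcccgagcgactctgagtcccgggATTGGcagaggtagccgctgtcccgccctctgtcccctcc
Insig1: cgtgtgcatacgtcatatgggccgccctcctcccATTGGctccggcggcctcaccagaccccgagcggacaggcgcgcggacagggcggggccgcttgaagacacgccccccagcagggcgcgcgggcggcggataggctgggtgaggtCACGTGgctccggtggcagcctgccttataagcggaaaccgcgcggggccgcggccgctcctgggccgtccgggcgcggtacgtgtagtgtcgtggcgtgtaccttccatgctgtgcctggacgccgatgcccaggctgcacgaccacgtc
Msmo1: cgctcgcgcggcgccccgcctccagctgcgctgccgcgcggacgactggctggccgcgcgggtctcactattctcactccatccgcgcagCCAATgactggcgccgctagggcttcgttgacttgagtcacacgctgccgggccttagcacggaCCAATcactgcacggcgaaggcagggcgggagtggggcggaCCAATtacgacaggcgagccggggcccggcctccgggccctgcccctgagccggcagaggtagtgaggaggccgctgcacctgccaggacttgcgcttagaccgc
Dhcr7: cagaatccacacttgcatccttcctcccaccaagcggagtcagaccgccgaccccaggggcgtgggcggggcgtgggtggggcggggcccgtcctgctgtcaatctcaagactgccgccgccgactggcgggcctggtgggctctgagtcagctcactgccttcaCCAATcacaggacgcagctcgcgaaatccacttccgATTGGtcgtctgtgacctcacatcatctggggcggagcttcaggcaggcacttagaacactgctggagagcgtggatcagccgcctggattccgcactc
Ggps1: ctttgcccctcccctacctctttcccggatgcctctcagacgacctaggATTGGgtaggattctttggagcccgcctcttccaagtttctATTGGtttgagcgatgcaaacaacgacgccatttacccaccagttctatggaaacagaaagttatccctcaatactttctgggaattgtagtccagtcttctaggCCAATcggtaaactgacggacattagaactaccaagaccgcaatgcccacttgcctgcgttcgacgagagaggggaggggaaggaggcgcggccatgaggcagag

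The sterol regulatory element as spelled occurred in 1 of 23 members (4.35%), beginning 137 bases before the start of Hmgcs1, against 1.4% of the 15618 tested genes that have a window. The CCAAT box occurred in 22 of 23 members (95.7%), against 41.7% of those tested genes. Counted per window, which sets aside that some genes have several, it was in 23 of 31 windows of the members (74.2%) and in 37.4% of all 32851 windows. Among members that fell in Hdac3 +/- macrophages 10 of 10 held a CCAAT box, and among the other members 12 of 13 did. Ggps1 holds 3, as many as Msmo1, so in these windows the box did not mark which members fell. The GC box was in 20 of 23 members (87%), against 52.9% of tested genes, and the E-box in 5 (21.7%; Hsd17b7, Insig1, Dhcr7, Sc5d and Scap), against 9.5%. In Dhcr7 the E-box lies in a window other than the one printed.

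In the mevalonate section LPS lowered 0 of 6 members in Hdac3 -/- and 3 of 6 in Hdac3 +/- macrophages. Of all genes, 5.18% and 15.5% fell, and these shares stand beside the count of each section below. At an unadjusted p under 0.05 the counts were 3 and 4. Hmgcs1, the synthase that makes HMG-CoA, read 8.69, 8.70 and 8.51 in Hdac3 -/- LPS arrays, against 9.40, 8.97 and 9.57 in Hdac3 -/- untreated arrays. It read 8.07, 8.03 and 8.47 in Hdac3 +/- LPS arrays, against 9.29, 9.92 and 9.28 in Hdac3 +/- untreated arrays. In both genotypes every LPS array lay below every untreated array. The fall in Hdac3 +/- cells was 2.48-fold (log2 -1.31 ± 0.202, adjusted p = 0.000338), and the value in Hdac3 -/- cells was -0.68 ± 0.202 (adjusted p = 0.0517). That value passed the threshold without either untreated replicate 2 array (adjusted p = 0.0224 without that of Hdac3 -/- and 0.0230 without that of Hdac3 +/-) and without Hdac3 +/- LPS replicate 3 (0.0488).

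Mvd, the decarboxylase that yields isopentenyl diphosphate, read 8.09, 7.99 and 7.96 in Hdac3 -/- LPS arrays, against 9.37, 7.99 and 9.38 in Hdac3 -/- untreated arrays. It read 6.33, 6.75 and 6.00 in Hdac3 +/- LPS arrays, against 7.35, 8.40 and 7.48 in Hdac3 +/- untreated arrays. Untreated replicate 2 of Hdac3 -/- stood at the level of the LPS arrays, and it was the array where most enzymes were low. Mvd fell 2.61-fold in Hdac3 +/- cells (log2 -1.38 ± 0.347, adjusted p = 0.00989). In Hdac3 -/- cells the value was -0.91 ± 0.347 (adjusted p = 0.143), and without untreated replicate 2 it was -1.37 (adjusted p = 0.00737).

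Idi1, the isomerase that acts next, read 8.54, 8.43 and 8.58 in Hdac3 -/- LPS arrays, against 9.27, 8.95 and 9.28 in Hdac3 -/- untreated arrays. It read 7.75, 7.24 and 8.03 in Hdac3 +/- LPS arrays, against 7.93, 8.32 and 8.96 in Hdac3 +/- untreated arrays, and those 2 groups overlap. Its fall of 0.73 in Hdac3 +/- cells (SE 0.239, adjusted p = 0.0387) held in 11 of 21 alternatives. The arrays whose omission ended it were Hdac3 +/- untreated 2 and 3, Hdac3 +/- LPS 1 and 2, Hdac3 -/- untreated 1 and Hdac3 -/- LPS 1 and 3. Another, dimmer probe set for Idi1 gave 0.02 (adjusted p = 0.945) in that comparison, so the 2 probe sets disagree. Mvk and Pmvk, the kinases between HMG-CoA and Mvd, and Fdps, which makes farnesyl diphosphate, were not called with all arrays. Their log2 differences lay between -0.44 and -0.32 in Hdac3 -/- and between -0.53 and -0.19 in Hdac3 +/- macrophages.

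Ggps1 makes geranylgeranyl diphosphate for protein prenylation and so lies on a branch off the sterol route. Its group means were 7.36 in Hdac3 -/- LPS, 7.33 in Hdac3 -/- untreated, 7.56 in Hdac3 +/- LPS and 7.39 in Hdac3 +/- untreated arrays. The LPS differences were 0.03 (95% interval -0.33 to 0.40) in Hdac3 -/- and 0.18 (-0.18 to 0.54) in Hdac3 +/- cells.

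Of the enzymes from farnesyl diphosphate to lanosterol, 2 of 3 fell in each genotype. Sqle, the squalene epoxidase, read 8.56, 8.29 and 8.75 in Hdac3 -/- LPS arrays, against 9.36, 9.31 and 9.05 in Hdac3 -/- untreated arrays. It read 8.0, 8.25 and 8.02 in Hdac3 +/- LPS arrays, against 8.77, 9.15 and 8.72 in Hdac3 +/- untreated arrays. The groups did not overlap in either genotype, and the fall was 1.63-fold in Hdac3 -/- (adjusted p = 0.0141) and 1.74-fold in Hdac3 +/- cells (adjusted p = 0.00275). The call in Hdac3 -/- cells was lost without untreated replicate 1 or LPS replicate 2. Lss, which closes the sterol ring system, read 7.09, 6.48 and 6.71 in Hdac3 -/- LPS arrays, against 8.67, 7.43 and 8.51 in Hdac3 -/- untreated arrays. It read 6.86, 6.41 and 6.37 in Hdac3 +/- LPS arrays, against 8.16, 9.25 and 7.43 in Hdac3 +/- untreated arrays. No groups overlapped, although the untreated arrays spread widely, with an SD of 0.673 in Hdac3 -/- and 0.916 in Hdac3 +/- cells. Lss fell 2.72-fold in Hdac3 -/- cells (log2 -1.45 ± 0.394, adjusted p = 0.0348) and 3.33-fold in Hdac3 +/- cells (log2 -1.73 ± 0.394, adjusted p = 0.00537). The call in Hdac3 -/- cells was lost without untreated replicate 1 or 3 or without any 1 of the 3 LPS arrays. Fdft1, the squalene synthase, gave -0.52 (adjusted p = 0.314) in Hdac3 -/- and -0.66 (adjusted p = 0.0881) in Hdac3 +/- cells. Its dimmer probe set gave -1.04 (adjusted p = 0.00468) in Hdac3 +/- cells, and with the replicate number as a block within Hdac3 +/- the brighter one passed as well (adjusted p = 0.0126).

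Among the 8 enzymes that turn lanosterol into cholesterol, 2 fell in Hdac3 -/- and 3 in Hdac3 +/- macrophages. Dhcr7, the reductase of the last step of one route to cholesterol, read 6.47, 6.52 and 6.55 in Hdac3 -/- LPS arrays, against 8.03, 7.76 and 8.16 in Hdac3 -/- untreated arrays. It read 6.38, 5.69 and 6.20 in Hdac3 +/- LPS arrays, against 7.60, 8.21 and 7.79 in Hdac3 +/- untreated arrays. All 6 LPS arrays lay more than 1 log2 unit below every untreated array of either genotype. Dhcr7 fell 2.77-fold in Hdac3 -/- cells (log2 -1.47 ± 0.193, adjusted p = 0.000241) and 3.42-fold in Hdac3 +/- cells (log2 -1.77 ± 0.193, adjusted p = 1.93e-05), and both calls held under every alternative run.

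Msmo1, an oxidase that takes part in the removal of methyl groups from the sterol ring, read 10.09, 10.15 and 10.42 in Hdac3 -/- LPS arrays, against 11.07, 10.84 and 11.20 in Hdac3 -/- untreated arrays. It read 9.48, 9.52 and 9.91 in Hdac3 +/- LPS arrays, against 10.55, 11.25 and 10.95 in Hdac3 +/- untreated arrays. The groups did not overlap, and Msmo1 fell 1.76-fold in Hdac3 -/- (adjusted p = 0.0137) and 2.43-fold in Hdac3 +/- cells (adjusted p = 0.000228). The call in Hdac3 -/- cells was lost without untreated replicate 1 or 3 or LPS replicate 1 or 2. Nsdhl, a dehydrogenase of the same demethylation, read 7.62, 7.42 and 7.82 in Hdac3 -/- LPS arrays, against 8.54, 7.86 and 8.50 in Hdac3 -/- untreated arrays. It read 7.51, 7.72 and 7.37 in Hdac3 +/- LPS arrays, against 7.82, 8.70 and 8.11 in Hdac3 +/- untreated arrays. Its differences were nearly equal, -0.69 (adjusted p = 0.0864) in Hdac3 -/- and -0.68 (adjusted p = 0.0448) in Hdac3 +/- cells, and lay on either side of the threshold. In Hdac3 -/- cells it passed without Hdac3 -/- untreated replicate 2 (-0.90, adjusted p = 0.0259) and without Hdac3 +/- untreated replicate 2 (-0.69, adjusted p = 0.0390). The call in Hdac3 +/- cells held in 8 of 21 alternatives. The arrays whose omission ended it were Hdac3 +/- untreated 2 and 3, all 3 Hdac3 +/- LPS arrays, and replicates 1 and 3 of both Hdac3 -/- groups.

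The other five were not called in either genotype: the demethylase Cyp51, the reductases Tm7sf2 and Hsd17b7, the isomerase Ebp and the desaturase Sc5d. Cyp51 gave -0.64 and Sc5d -0.65 in Hdac3 -/- cells (adjusted p = 0.111 and 0.118), where neither had overlapping groups, and -0.33 and -0.19 in Hdac3 +/- cells. Both passed in Hdac3 -/- cells without untreated replicate 2 of that genotype (-0.83 and -0.85, adjusted p = 0.0457 and 0.0427). Hsd17b7 was flat, with 0.01 (95% interval -0.34 to 0.37) in Hdac3 -/- and -0.05 (-0.40 to 0.31) in Hdac3 +/- cells.

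**Figure D4:**
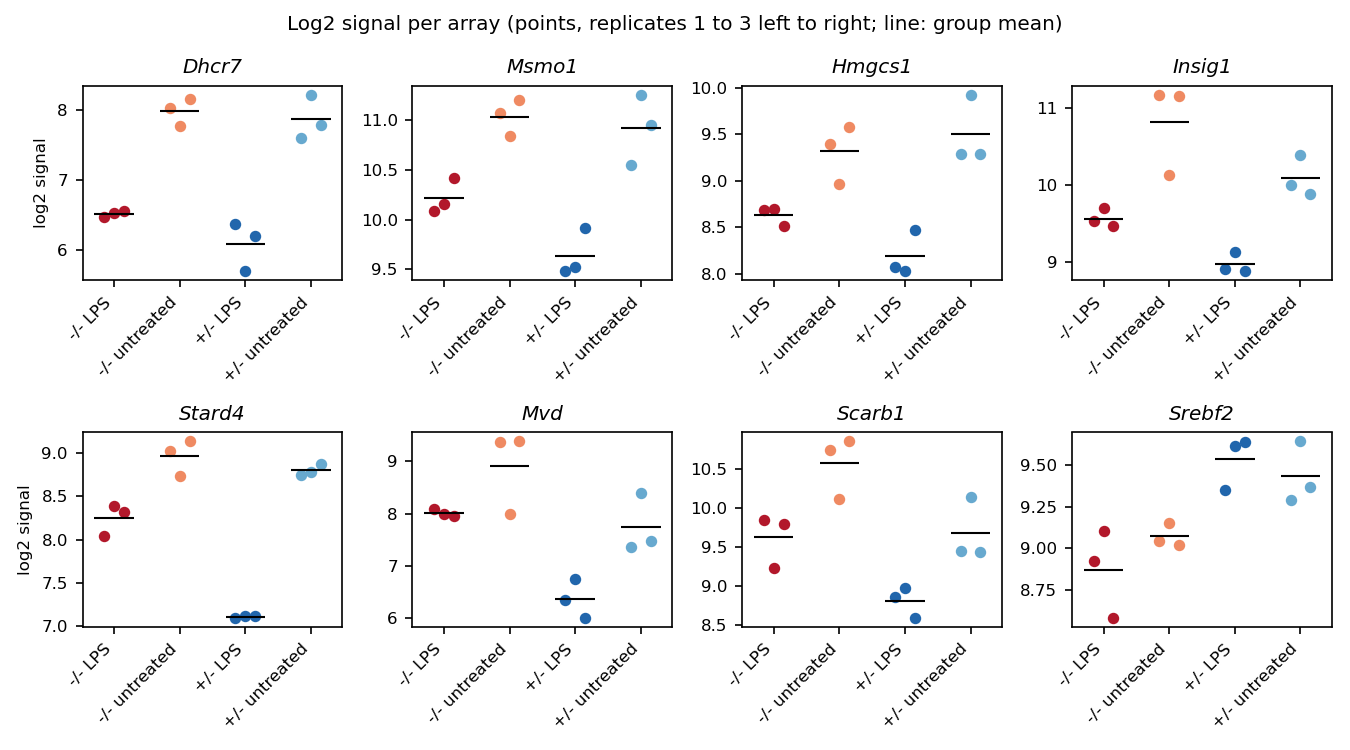
Log2 signal of 8 members in each array (points, replicates 1 to 3 from left to right) with group means as lines. Dhcr7, Msmo1, Hmgcs1 and Insig1 are lower in LPS groups of both genotypes, and Stard4, Mvd and Scarb1 are higher, and Srebf2 lower, in Hdac3 -/- LPS than in Hdac3 +/- LPS arrays.

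Of the 5 regulators, Insig1 and Srebf1 fell in both genotypes. Insig1, the sterol-responsive retention protein and itself an SREBP target, read 9.53, 9.70 and 9.46 in Hdac3 -/- LPS arrays, against 11.18, 10.13 and 11.17 in Hdac3 -/- untreated arrays. It read 8.90, 9.12 and 8.87 in Hdac3 +/- LPS arrays, against 10.01, 10.40 and 9.88 in Hdac3 +/- untreated arrays. Untreated replicate 2 of Hdac3 -/- lay a full log2 unit below the other two of its group, yet above all LPS arrays. The fall was 2.40-fold in Hdac3 -/- (log2 -1.26 ± 0.239, adjusted p = 0.00394) and 2.19-fold in Hdac3 +/- cells (log2 -1.13 ± 0.239, adjusted p = 0.00336), under every alternative run. Srebf1, which encodes SREBP-1, read 7.72, 7.88 and 7.48 in Hdac3 -/- LPS arrays, against 8.39, 8.02 and 8.24 in Hdac3 -/- untreated arrays. It read 7.58, 7.73 and 7.78 in Hdac3 +/- LPS arrays, against 8.08, 8.34 and 8.14 in Hdac3 +/- untreated arrays. The shift was small and without overlap, -0.52 ± 0.147 (adjusted p = 0.04) in Hdac3 -/- and -0.49 ± 0.147 (adjusted p = 0.0249) in Hdac3 +/- cells. The first call held in 12 of 20 alternatives and was lost without replicate 1 or 3 of either Hdac3 -/- group. The second held in 13 of 21, and was lost without Hdac3 +/- untreated 2 or 3, without Hdac3 +/- LPS 1 or 2, and without both arrays with Y-linked signal (adjusted p = 0.0714).

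Srebf2, which encodes the SREBP most tied to cholesterol synthesis, was not called as changed by LPS. Its values were -0.20 (95% interval -0.54 to 0.13) in Hdac3 -/- and 0.10 (-0.23 to 0.44) in Hdac3 +/- cells. Scap, the escort protein, gave -0.22 and -0.25, and Insig2, the other retention protein, gave 0.15 and -0.15 in Hdac3 -/- and Hdac3 +/- cells. None of these passed the threshold.

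Of the 6 measured genes of uptake, lysosomal release and transport, 3 fell in Hdac3 -/- and 4 in Hdac3 +/- macrophages. Stard4, a soluble sterol carrier and SREBP target, read 8.04, 8.38 and 8.32 in Hdac3 -/- LPS arrays, against 9.03, 8.73 and 9.14 in Hdac3 -/- untreated arrays. It read 7.09, 7.11 and 7.12 in Hdac3 +/- LPS arrays, against 8.74, 8.78 and 8.88 in Hdac3 +/- untreated arrays. The untreated arrays of both genotypes overlapped, whereas the LPS arrays formed 2 separate levels. The fall was 1.64-fold in Hdac3 -/- (log2 -0.72 ± 0.138, adjusted p = 0.00455) and 3.23-fold in Hdac3 +/- cells (log2 -1.69 ± 0.138, adjusted p = 1.45e-06).

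Npc1, the lysosomal membrane transporter, read 10.05, 10.25 and 9.99 in Hdac3 -/- LPS arrays, against 10.58, 10.94 and 10.59 in Hdac3 -/- untreated arrays. It read 10.00, 9.60 and 9.86 in Hdac3 +/- LPS arrays, against 10.43, 10.88 and 10.87 in Hdac3 +/- untreated arrays. The fall without overlap was 1.52-fold in Hdac3 -/- (adjusted p = 0.0356) and 1.87-fold in Hdac3 +/- cells (adjusted p = 0.00128). In Hdac3 -/- cells the call was lost when any 1 of the 6 Hdac3 -/- arrays was left out. Scarb1, a receptor that takes up cholesteryl esters from high-density lipoprotein, read 9.84, 9.23 and 9.80 in Hdac3 -/- LPS arrays, against 10.75, 10.12 and 10.86 in Hdac3 -/- untreated arrays. It read 8.86, 8.98 and 8.59 in Hdac3 +/- LPS arrays, against 9.44, 10.15 and 9.44 in Hdac3 +/- untreated arrays. The fall was 1.93-fold in Hdac3 -/- (adjusted p = 0.0244) and 1.82-fold in Hdac3 +/- cells (adjusted p = 0.0178), with no overlap. The first call was lost without untreated replicate 1 or 3 or LPS replicate 2, and the second without untreated replicate 2 or LPS replicate 3.

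Lipa, the lysosomal acid lipase, read 12.35, 11.98 and 12.22 in Hdac3 -/- LPS arrays, against 12.83, 12.43 and 12.71 in Hdac3 -/- untreated arrays. It read 11.70, 11.59 and 11.74 in Hdac3 +/- LPS arrays, against 12.26, 12.44 and 12.44 in Hdac3 +/- untreated arrays. LPS arrays lay below untreated arrays in both genotypes, and the fall was 1.63-fold in Hdac3 +/- cells (adjusted p = 0.00256), while Hdac3 -/- cells gave -0.48 (adjusted p = 0.0543). Without Hdac3 -/- untreated replicate 2 the value in Hdac3 -/- cells passed (-0.59, adjusted p = 0.0304). Npc2, the soluble partner of Npc1, gave -0.16 and 0.22 in Hdac3 -/- and Hdac3 +/- cells, and Npc1l1, the intestinal sterol uptake protein, gave 0.01 and 0.33. Npc1l1 had group means between 5.19 and 5.52, and passed the threshold upward in Hdac3 +/- cells when LPS replicate 1 was left out (0.44, adjusted p = 0.0382).

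In untreated macrophages no member differed between the genotypes past the threshold in limma, against 2.66% of all genes in either direction. At an unadjusted p under 0.05, 5 were higher and 2 lower in Hdac3 -/- cells, against 6.85% and 5.86% of all genes. The log2 difference of Hdac3 -/- minus Hdac3 +/- ran from -0.44 for Hsd17b7 to 1.17 for Mvd, with a median of 0.08. The largest after Mvd (adjusted p = 0.107) were Scarb1 at 0.90 (adjusted p = 0.0729), Idi1 at 0.76 (0.137) and Insig1 at 0.73 (0.155). These 4 depended on single arrays. Mvd, Insig1 and Scarb1 passed as higher in Hdac3 -/- cells without Hdac3 -/- untreated replicate 2 (1.63, 1.08 and 1.13), Mvd and Scarb1 without Hdac3 +/- untreated replicate 2 (1.50 and 1.13), and Idi1 without Hdac3 +/- untreated replicate 3 (1.04).

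After LPS, 5 of 29 members were higher in Hdac3 -/- than in Hdac3 +/- macrophages (17.2%, against 9.69% of all genes) and 1 was lower (3.45%, against 5.99%). The 5 were Mvd, Idi1, Stard4, Lipa and Scarb1, and the other was Srebf2. The median over the members was 0.08, with 18 of 29 positive, beside -0.04 for all genes. The genotypes did not overlap, with Hdac3 -/- higher, for 10 members, compared with 17.3% of all genes, and with Hdac3 -/- lower for 4, compared with 14.5%. Mvd lay between 7.96 and 8.09 in Hdac3 -/- LPS arrays and between 6.00 and 6.75 in Hdac3 +/- LPS arrays. Its difference was the widest of the members, 3.14-fold (log2 1.65 ± 0.347, adjusted p = 0.00568). Stard4 was 2.20-fold higher (log2 1.14 ± 0.138, adjusted p = 9.97e-05), Idi1 1.79-fold (adjusted p = 0.0295), Scarb1 1.76-fold (adjusted p = 0.0356) and Lipa 1.42-fold (adjusted p = 0.0277). The dimmer probe set of Idi1 gave 0.31 (adjusted p = 0.39) here. Mvd and Scarb1 were also on the higher side in untreated Hdac3 -/- cells, at 1.17 and 0.90, while Stard4 was at 0.17 there.

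Srebf2 read 8.92, 9.10 and 8.58 in Hdac3 -/- LPS arrays, against 9.35, 9.62 and 9.64 in Hdac3 +/- LPS arrays. In untreated cells it read 9.04, 9.15 and 9.02 in Hdac3 -/- arrays, against 9.29, 9.64 and 9.37 in Hdac3 +/- arrays. Neither pair of groups overlapped. The difference was -0.67 ± 0.156 after LPS, 1.59-fold lower (adjusted p = 0.0105), and -0.36 ± 0.156 without it (adjusted p = 0.335). Of the 6 calls after LPS, those of Mvd and Stard4 held under every alternative run. Srebf2 was lost without Hdac3 -/- LPS replicate 3 (adjusted p = 0.0606), Lipa without Hdac3 +/- LPS 2 or 3 or Hdac3 -/- LPS 1 or 3, and Idi1 without Hdac3 +/- LPS 2 or any 1 of the Hdac3 -/- LPS arrays. Scarb1 was lost without any 1 of the Hdac3 +/- LPS arrays, without Hdac3 -/- LPS 1 or 3, and without both arrays with Y-linked signal (0.84, adjusted p = 0.0598). The count of members called was 3 without Hdac3 +/- LPS 2 or Hdac3 -/- LPS 1, and 2 without Hdac3 -/- LPS 3.

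**Figure D5:**
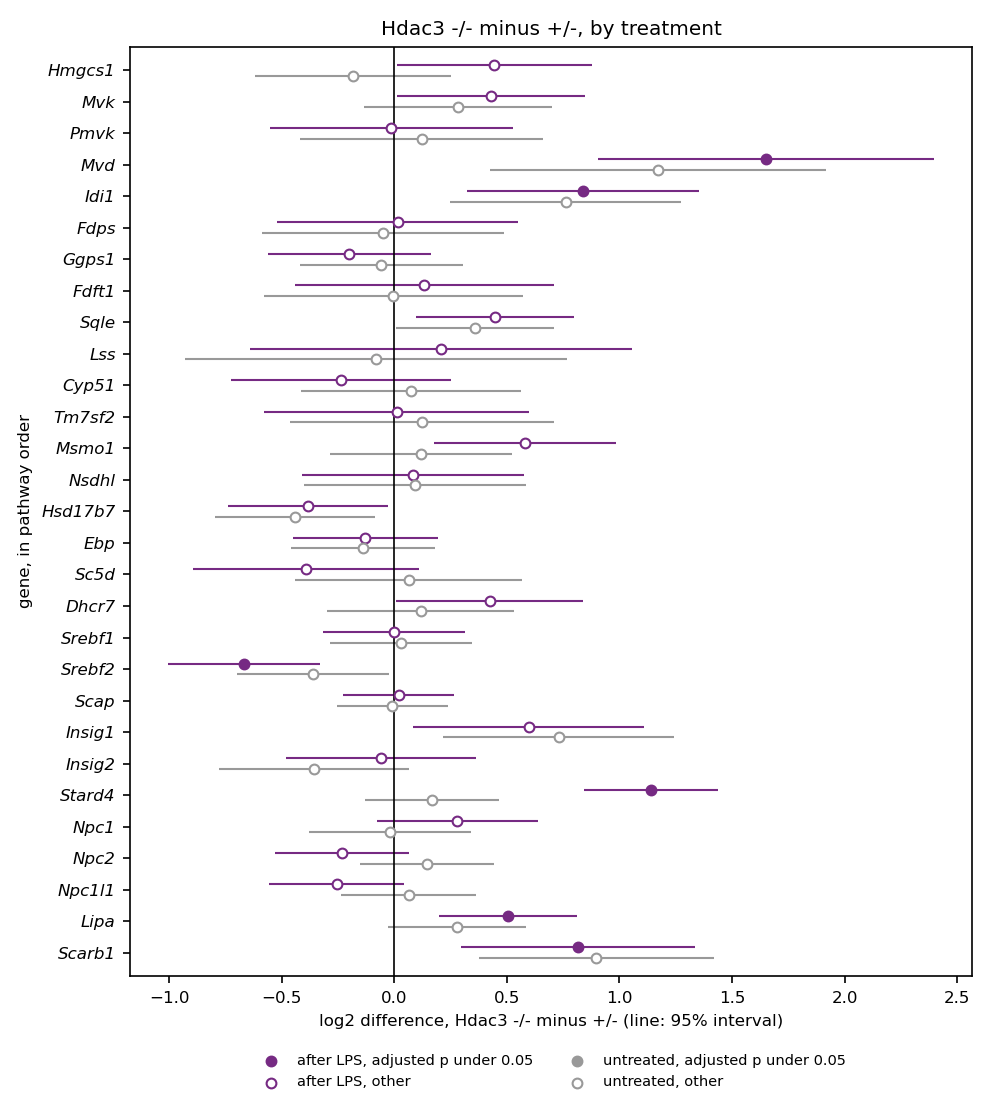
Log2 difference of Hdac3 -/- minus Hdac3 +/- macrophages for the 29 members, after LPS and untreated, with 95% intervals as lines. After LPS 5 members lie right of 0 and Srebf2 left of 0 with an adjusted p under 0.05, and none does in untreated cells.

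The difference between the 2 LPS responses was tested for every member by the interaction term, which shares its arrays with the other comparisons. Stard4 alone, 1 of 29, passed, against 1.08% of all genes in either direction. Its LPS response was 0.97 less negative in Hdac3 -/- than in Hdac3 +/- macrophages (SE 0.195, 95% interval 0.55 to 1.40, adjusted p = 0.0303). The adjusted p was above 0.05 when Hdac3 +/- untreated 1, 2 or 3, Hdac3 +/- LPS 3, Hdac3 -/- untreated 1 or 2, or Hdac3 -/- LPS 2 or 3 was left out, and without both arrays with Y-linked signal (1.00, adjusted p = 0.0659), though the difference stayed between 0.82 and 1.08 under all alternatives. For 17 of 29 members the response was less negative in Hdac3 -/- cells. The difference was 0.63 for Hmgcs1 (95% interval 0.01 to 1.24, adjusted p = 0.42) and 0.46 for Msmo1 (-0.11 to 1.03). It was 0.31 for Dhcr7 (-0.28 to 0.89), 0.29 for Lss (-0.91 to 1.49) and -0.13 for Insig1 (-0.86 to 0.59). A p above the threshold does not show equal responses.

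Genes next to the pathway were read from further lists, 1 of which shares genes with the members and with another list. Of 13 fatty acid and lipid synthesis genes under SREBP control, 6 fell with LPS in Hdac3 -/- (46.2%, against 5.18% of all genes). In Hdac3 +/- macrophages 9 fell (69.2%, against 15.5%). None rose in either genotype, against 3.69% and 9.59% of all genes. Fads1, a fatty acid desaturase, read 8.55, 8.32 and 8.59 in Hdac3 -/- LPS arrays, against 10.01, 9.87 and 9.90 in Hdac3 -/- untreated arrays (-1.44, adjusted p = 0.000128). It read 8.76, 8.05 and 8.35 in Hdac3 +/- LPS arrays, against 9.85, 10.24 and 10.22 in Hdac3 +/- untreated arrays (-1.72, adjusted p = 1.13e-05). LPS arrays lay at least 1 log2 unit below untreated arrays in each genotype. Lpin1, a phosphatidate phosphatase, fell by 1.78 in Hdac3 -/- and by 1.70 in Hdac3 +/- cells, and Fasn, the fatty acid synthase, fell by 1.20 in Hdac3 -/- cells. Scd2, a desaturase, read 10.20, 7.90 and 10.12 in Hdac3 -/- LPS arrays, against 11.80, 9.47 and 11.50 in Hdac3 -/- untreated arrays (-1.52, adjusted p = 0.279). It read 7.98, 8.14 and 6.13 in Hdac3 +/- LPS arrays, against 10.77, 11.40 and 9.55 in Hdac3 +/- untreated arrays (-3.15, adjusted p = 0.00656). The groups overlapped in Hdac3 -/- cells, where replicate 2 read lowest under both treatments. Each Hdac3 -/- LPS array lay below the untreated array of the same number, though no label pairs them. In Hdac3 +/- cells the groups did not overlap, and the interaction term of Scd2 did not pass (1.64, adjusted p = 0.606). After LPS, 3 of the 13 were higher in Hdac3 -/- cells, Fasn (0.79), Mid1ip1 (0.79) and Gpam (0.76), and none was lower. Of all genes, 9.69% were higher and 5.99% lower in that comparison.

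Of 7 measured genes of the machinery that processes SREBPs or degrades sterol sensors, none passed with LPS in Hdac3 -/- cells (1 at an unadjusted p under 0.05). In Hdac3 +/- cells 3 rose and 3 fell. Of all genes, 3.69% rose and 5.18% fell in Hdac3 -/- cells, and 9.59% rose and 15.5% fell in Hdac3 +/- cells. Calls in 1 genotype alone do not show that the responses differed, and the interaction term passed for 1 of the 7. The ubiquitin ligase gene Rnf139 read 7.59, 7.20 and 7.38 in Hdac3 -/- LPS arrays, against 7.55, 7.39 and 7.63 in Hdac3 -/- untreated arrays. It read 8.64, 8.17 and 8.55 in Hdac3 +/- LPS arrays, against 7.64, 7.46 and 7.70 in Hdac3 +/- untreated arrays. It rose in Hdac3 +/- cells (0.85, adjusted p = 0.00114) and its interaction term passed (-0.99 ± 0.218, adjusted p = 0.0488), but in 1 alone of 13 fits that left out 1 array or both arrays with Y-linked signal. Mbtps1, the protease that cuts SREBPs, was lower in untreated Hdac3 -/- cells (-0.61, adjusted p = 0.0341), as was Erlin1, an endoplasmic reticulum protein (-0.77, adjusted p = 0.0175). Both calls were lost without both arrays with Y-linked signal (adjusted p = 0.0644 and 0.0694), and held in 5 and 8 of those 13 fits. Of 9 genes that use isoprenoids for prenylation, dolichol or coenzyme Q, none passed with LPS in Hdac3 -/- cells at either the adjusted or the unadjusted level. In Hdac3 +/- cells 4 fell, with Rabggta at -0.64, Fnta at -0.61 and Rabggtb at -0.58. The interaction term passed for none of these 9. The call of Rabggta held in 3 of the 13 fits, that of Rabggtb in 9 and that of Fnta in 13.

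Of 11 targets of the oxysterol receptor LXR and oxysterol enzymes, 1 rose (9.09%) and 3 fell (27.3%) with LPS in each genotype. Of all genes, 3.69% rose and 5.18% fell in Hdac3 -/- cells, and 9.59% rose and 15.5% fell in Hdac3 +/- cells. Srebf1, a member described above, is among the 3 in both genotypes, and Scd2, also on the fatty acid list, is among the 3 in Hdac3 +/- cells. The others were Cyp27a1, a sterol hydroxylase (-1.55 in Hdac3 -/- and -1.57 in Hdac3 +/- cells, adjusted p = 0.0398 and 0.0170), and, in Hdac3 -/- cells, the cholesterol efflux transporter Abcg1 (-1.98, adjusted p = 0.0344). In Hdac3 -/- cells the call of Cyp27a1 held in 6 and that of Abcg1 in 9 of the 13 fits. Abcg1 gave -1.43 (adjusted p = 0.067) in Hdac3 +/- cells, also without overlap. The interaction term passed for none of the 11. Ch25h, the cholesterol hydroxylase that makes an oxysterol inhibitor of SREBP processing, read 9.20, 10.72 and 9.13 in Hdac3 -/- LPS arrays, against 3.71, 5.67 and 3.42 in Hdac3 -/- untreated arrays. It read 12.85, 12.58 and 12.59 in Hdac3 +/- LPS arrays, against 9.19, 6.61 and 6.39 in Hdac3 +/- untreated arrays. So it rose in both genotypes, by 5.42 in Hdac3 -/- and by 5.27 in Hdac3 +/- cells. It was lower in Hdac3 -/- cells by 2.99 after LPS (adjusted p = 0.0101) and by 3.13 untreated (adjusted p = 0.0256). Hdac3 +/- untreated replicate 1, 1 of the arrays with Y-linked signal, had the highest untreated value, and without both such arrays the untreated difference was -2.23 (adjusted p = 0.0914). Apoe, a lipoprotein component, was higher in Hdac3 -/- cells by 1.17 after LPS (adjusted p = 0.00728) and by 1.22 untreated (adjusted p = 0.0195). The untreated call of Apoe held in 10 of the 13 fits, and the call after LPS in 13. Without both arrays with Y-linked signal its untreated difference was 0.89 (adjusted p = 0.0152). Of 12 further genes of lipoprotein and sterol uptake, 2 rose (16.7%) and none fell in Hdac3 -/- cells. In Hdac3 +/- cells 3 rose (25%) and 4 fell (33.3%). The all-gene shares given above apply here too, and the interaction term passed for none of the 12. The scavenger receptor Olr1 rose by 4.60 in Hdac3 -/- and by 5.63 in Hdac3 +/- cells. After LPS 3 were higher in Hdac3 -/- cells (25%, against 9.69% of all genes), Lrp8 (1.22) and Osbpl2 (0.94) among them. Stard3 (-1.09) alone was lower (8.33%, against 5.99%).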

How the data were processed

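Log2 signals per probe set were deposited for 12 arrays, made by the authors with RMA and affy, per the submitters' processing notes. The sources used here do not give versions, chip description file or genome build. Of 28193 probe sets, 21648 carried 1 gene symbol in the platform annotation, 1313 several and 5232 none, and only the first kind was used. The brightest probe set per symbol gave 19945 genes, 19855 of them matched to RefSeq by Entrez identifier with 0 symbols changed. A mean per group was fitted to all 12 arrays with limma 3.58.1 in R 4.3.3 (lmFit, eBayes without trend), and p-values of each of 5 contrasts took a Benjamini-Hochberg adjustment over all 19945 genes, with a threshold of 0.05. The fit was run on simulated data as a check of the code. Noise was drawn there for each gene on its own, so the check does not cover genes that vary together between arrays. Log2 differences are given with SE and n = 3 arrays per group, and a fold is 2 to the power of the difference. The number of arrays limits the precision. Promoter windows came from RefSeq (GRCm38.p6). Python 3.11.15, pandas 2.3.3, numpy 2.4.6 and matplotlib 3.10.9 served for tables and figures.

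The members and gene lists were chosen with earlier results of these data known. All members are named. Values in every array are given for members past the threshold in at least 1 comparison, and of each neighbouring list at most 3 genes with the largest change past the threshold are named in a comparison. Samples were grouped by genotype and treatment as labelled. Replicate numbers were checked as a pairing by correlating deviations from group means. Between the untreated and LPS arrays of Hdac3 +/- the same-numbered pairs gave 0.243, 0.327 and 0.223. A fit with these numbers as a block was added after that check, while the main fit has no block. Differently numbered arrays of different groups reached 0.514, so the correlations do not settle whether the numbers mark pairs. The same pairs of Hdac3 -/- gave 0.0898, 0.195 and -0.122, and no block was fitted within Hdac3 -/- alone. Over all groups, 6 of 18 same-numbered and 13 of 36 other pairs were above 0.1. Alternatives covered the replicate block, an intensity trend, array weights, renewed quantile normalization, a filter at a mean signal of 3.82 (the lower quartile), all probe sets, only the groups compared, each array left out, and, added after seeing the data, both arrays with Y-linked signal left out. Neighbouring genes were refitted in 13 fits, each array or both those arrays left out. No paired animal source is given in the labels.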

Additional observations from a re-analysis of the deposited data

Results flagged for a closer look

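The LPS response of Stard4 differed between the genotypes by the interaction term. It was 0.97 less negative on the log2 scale in Hdac3 -/- than in Hdac3 +/- macrophages (adjusted p = 0.0303 in limma), with LPS lower than untreated in all arrays of both. The threshold was met in 7 of 19 alternatives, with adjusted p between 0.0291 and 0.0916 over all of them.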

How the results depend on the processing

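No result reversed under any alternative run on the probe set used. With all probe sets, each single call was refitted on its own probe set, so its difference could not change. The dimmer probe set of Idi1 gave 0.02 for LPS in Hdac3 +/- cells, against -0.73 for the brighter one. The 9 members called as lower after LPS in Hdac3 -/- cells became 20 with array weights and 3 to 14 when 1 array was left out (7 with the replicate block, 12 with only the groups compared). The 14 in Hdac3 +/- cells became 10 to 14 with 1 array left out, 13 with the replicate block, 15 with the block within Hdac3 +/- only, and 11 with array weights. In untreated cells the 0 members differing by genotype became 4 with array weights (Mvd, Idi1, Insig1 and Scarb1, all higher in Hdac3 -/-) and 0 to 3 with 1 array left out. After LPS the 6 members became 2 to 7 with 1 array left out, 4 after quantile normalization and 6 with the replicate block, under which Scarb1 was lost and Msmo1 gained (0.58, adjusted p = 0.0409). The block also ended the calls of Srebf1 and Npc1 in Hdac3 -/- cells and of Nsdhl in Hdac3 +/- cells. Quantile normalization ended the LPS calls of Lss and Srebf1 in Hdac3 -/- cells and of Idi1, Nsdhl and Srebf1 in Hdac3 +/- cells. It added Lipa in Hdac3 -/- cells (-0.54, adjusted p = 0.02895). Between the genotypes after LPS it ended the calls of Idi1 and Lipa. The 1 interaction call became 0 with the replicate block, the intensity trend, quantile normalization or both arrays with Y-linked signal left out, and 0 to 1 with 1 array left out. The cause was not tested, beyond that fewer arrays leave fewer degrees of freedom. Hdac3 stayed between -1.85 and -1.61 on the log2 scale in Hdac3 -/- relative to Hdac3 +/- cells in both genotype comparisons. In Hdac3 -/- cells Dhcr7, Insig1 and Stard4 kept their calls in 20 of 20 alternatives. In Hdac3 +/- cells Hmgcs1, Mvd, Sqle, Lss, Msmo1, Dhcr7, Insig1, Stard4, Npc1 and Lipa kept theirs in 21 of 21. With 3 arrays per group, only large or tight differences can pass, and intervals for most interaction terms spanned more than 1 log2 unit.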
